A study of Homo sapiens with 16 samples.

Results

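Genes of oxygen sensing and HIF control, 10 in all, were followed through 16 RNA-seq libraries of 4 human clear cell renal cell carcinoma (ccRCC) lines. They were taken by name from the raw count table, where 10 of 57773 genes carry these symbols: the alpha subunits HIF1A, EPAS1 (HIF-2 alpha) and HIF3A, the beta subunits ARNT and ARNT2, the prolyl hydroxylases EGLN1, EGLN2 and EGLN3, the asparaginyl hydroxylase HIF1AN and the ubiquitin ligase subunit VHL. All 10 passed the filter of at least 60 counts summed over the 16 libraries, although HIF3A passed with 87 counts in all and did so through CAKI-2 and A498. The question put to them was which line carries which HIF alpha transcript, and whether guides against the histone demethylases KDM5C and KDM5D altered any of the 10.

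The study introduced Cas9 and 1 guide RNA by lentivirus into each culture, selected the cells with puromycin and sequenced RNA from the resulting populations, which were not single clones. Each of the lines, CAKI-2, 786-O, 769-P and A498, gave 1 library with a control guide (sgCtrl) and 2 libraries with guides 4 and 5 against KDM5C (sgKDM5C). In 786-O and CAKI-2, a further 2 libraries carried guides 2 and 4 against KDM5D (sgKDM5D), the paralogue on the Y chromosome. All libraries of a line descend from that line's culture, so a p-value measures the spread between guide populations of 1 line and not the spread between tumours. In the study's exome panel all 4 lines are listed with a VHL mutation, which the control libraries share. Within a line the 2 sgKDM5C libraries, and the 2 sgKDM5D libraries, were all read against the same single sgCtrl library.

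HIF is a dimer of an oxygen-regulated alpha subunit and a stable beta subunit. When oxygen is present, the EGLN enzymes hydroxylate prolines of the alpha subunit, pVHL binds the hydroxylated protein, and the ligase built on pVHL marks it for the proteasome, while HIF1AN hydroxylates an asparagine that is needed to recruit coactivators. In ccRCC, loss of VHL lets alpha subunits persist in oxygen, and HIF-2 alpha is regarded as the main driver of the tumour while HIF-1 alpha is often lost. The control is exerted on the protein, so transcript levels state which subunits a line can make and not how much HIF is active.

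The sequences that EGLN enzymes act on are shown first, because they are what the 3 alpha transcripts share. Each line below is 30 bases of coding sequence from the GRCh37 reference on the plus strand, read 5′ to 3′, with the codon of the hydroxylated proline in capitals. Each was located by its codons for the motif Leu-x-x-Leu-Ala-Pro, where x is any residue. These are reference sequences, not the sequences of the lines.
HIF1A codon 402 of 826, exon 9, chr14:62203761-62203790: gatgctttaactttgctggccCCAgccgct
HIF1A codon 564 of 826, exon 12, chr14:62207482-62207511: ttagacttggagatgttagctCCCtatatc
EPAS1 codon 405 of 870, exon 9, chr2:46603835-46603864: gaggagctggcccagctggctCCCacccca
EPAS1 codon 531 of 870, exon 12, chr2:46607381-46607410: ctggacttggagacactggcaCCCtatatc
HIF3A codon 492 of 669, exon 12, chr19:46832476-46832505: ctggatttggagatgctggccCCCtacatc
HIF1A and EPAS1 each carried the motif at 2 places, in exons 9 and 12 of the transcript read, while HIF3A carried it at 1.

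EGLN1 and EGLN3 are themselves known HIF targets, so the core of the HIF response element, ACGTG, was searched on both strands of the promoter windows in the RefSeq table of GRCh38.p14, which run from 250 bases before to 50 bases after each start. Of the 10 genes, 8 matched that table, all but VHL and ARNT2. The core was found in 2 of the 12 windows of these 8 genes, those of EGLN1 and EGLN2, against 21.4% of 35116 promoter windows of that length. The longer form TACGTG was found in 1 of the 12, that of EGLN1, against 3.24% of all windows. Both sites are shown in 30 bases with the core in capitals.
EGLN1, minus strand, chr1:231422283-231422312, core beginning at -13 from the start: gggccgtggtgtACGTGcagagcgcgcaga
EGLN2, plus strand, chr19:40799131-40799160, core beginning at -48 from the start: cggggcgcggtcACGTGcccaccgggcgag
The EGLN2 core reads the same on both strands because it lies within CACGTG. A match is only these letters in this window. EGLN3, the hydroxylase gene with the widest range between lines below, had none in its window.

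Depth was similar across the series, at 23398449 to 41617439 counts per library. KDM5C transcript was left at 26.2% to 57.3% of the control in the 8 sgKDM5C libraries, whereas KDM5D transcript was left at 76.2% to 103% in the 4 sgKDM5D libraries, so the transcript does not check the sgKDM5D label. A list of kidney and ccRCC markers summed to 2790 to 4310 CPM, counts scaled to a common library size, with CA9 at 3 counts or fewer in 786-O, CAKI-2 and 769-P and LRP2 likewise in 786-O and A498. Markers of other cells summed to 1.32 to 43.8 CPM, the highest in A498 through COL1A1, and PTPRC, CD3E and COL1A2 stood at 3 counts or fewer in every library. In 786-O the library of sgKDM5C guide 4 stood apart. Its counts differed from those of the other 4 libraries by a chi-square of 37.5 to 69 per gene, against 8.26 to 34.1 among the other 4. In 769-P the library of sgKDM5C guide 4 also stood apart, with a chi-square of 45.1 and 46 per gene against the other 2 libraries and 11.1 between those 2. Some of the results that rest on either library are also given without it.

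Levels below are CPM scaled by the trimmed mean of M values, listed per line in the order sgCtrl, sgKDM5C guide 4, sgKDM5C guide 5 and, for 786-O and CAKI-2, sgKDM5D guide 2 and sgKDM5D guide 4. Levels of different genes are compared only as CPM per kilobase of exon (CPM/kb). Lines were tested with edgeR's quasi-likelihood test, taking a line as the mean of its sgCtrl and sgKDM5C groups, with Benjamini-Hochberg adjustment over 20175 genes and a threshold of 0.05. All 10 members differed among the 4 lines, but so did 90.5% of all genes tested, so that count is not particular to them. HIF3A passed the filter only through the lines where it is high, and without it the count was 9 of 9.

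HIF1A (ENSG00000100644, chr14:62162231-62214977, plus strand, GRCh37) was abundant in CAKI-2 and A498 and low in 786-O and 769-P. In 786-O it stood at 5.26, 4.34, 3.70, 5.59 and 4.15 CPM. In CAKI-2 it stood at 109, 137, 109.7, 102 and 121 CPM. The lowest CAKI-2 library was therefore far above the highest 786-O library. A498 gave 83.5, 134 and 141 CPM, and 769-P gave 5.47, 2.88 and 6.0 CPM. The ranges of A498 and CAKI-2 overlapped, as did those of 786-O and 769-P, and no library of the first pair came near the second.

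By edgeR, HIF1A was 25.2-fold lower in 786-O than in CAKI-2 (log2 fold change -4.66, SE 0.25, adjusted p = 1.78e-09) and 23.3-fold lower than in A498 (-4.54, SE 0.249, adjusted p = 1.53e-09). It was 23.6-fold higher in CAKI-2 than in 769-P (4.56, SE 0.249, edgeR adjusted p = 1.98e-09) and 21.8-fold higher in A498 than in 769-P (4.45, SE 0.248, adjusted p = 1.62e-09). Between CAKI-2 and A498 the log2 difference was 0.12 with a 95% interval of -0.31 to 0.54 (edgeR adjusted p = 0.626). Between 786-O and 769-P it was -0.09 with an interval of -0.60 to 0.42 (edgeR adjusted p = 0.798). The transcript was still detected in every library of the low pair. In bulk libraries, fewer expressing cells and less transcript per cell cannot be told apart.

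EPAS1 (ENSG00000116016, chr2:46520806-46613836, plus strand), which encodes HIF-2 alpha, was ordered A498, 786-O, CAKI-2, 769-P from high to low. A498 gave 421, 355 and 481 CPM, and 786-O gave 197, 329, 243, 188 and 216 CPM. CAKI-2 gave 63.2, 75.7, 59.4, 63.9 and 48.7 CPM, and 769-P gave 22.6, 18.7 and 32.0 CPM. No library of one line reached into the range of the next, although the highest 786-O library, guide 4 at 329 CPM, came close to the lowest A498 library at 355 CPM. A498 libraries averaged 419 ± 63.2 CPM and 769-P libraries 24.4 ± 6.85 CPM (SD, n = 3 each), with 786-O at 234 ± 56.9 CPM and CAKI-2 at 62.2 ± 9.67 CPM between them (SD, n = 5 each).

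Each step of that order passed the edgeR test. EPAS1 was 1.77-fold lower in 786-O than in A498 (log2 fold change -0.82, SE 0.21, edgeR adjusted p = 0.00293), and without the 786-O guide 4 library the log2 difference was -0.88 (edgeR adjusted p = 0.00154). This call was lost when the sgKDM5C groups alone were compared, at -0.55 (edgeR adjusted p = 0.0601). It was 3.63-fold higher in 786-O than in CAKI-2 (1.86, SE 0.218, edgeR adjusted p = 4.14e-06) and 2.73-fold higher in CAKI-2 than in 769-P (1.45, SE 0.219, edgeR adjusted p = 4.56e-05). The extremes, A498 over 769-P, differed 17.5-fold.

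HIF3A (ENSG00000124440, chr19:46800299-46846690, plus strand), the alpha gene whose shorter products can oppose the others, was at the limit of detection. It had 0 counts in all 5 libraries of 786-O, and 0, 0 and 1 in 769-P. CAKI-2 held 15, 16, 15, 10 and 6 counts and A498 held 8, 11 and 5, which is at most 0.558 CPM. Against the floor of 3 counts over the 786-O libraries together, 0.0212 CPM, the level was at least 18.0-fold higher in CAKI-2 and at least 14.8-fold higher in A498. Against the single count in 769-P, the ratio was 29.2 in CAKI-2, with a 95% counting interval of 5.06 to 1170. Such intervals and floors cover counting error only.

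Per kilobase, the 3 alpha transcripts gave each line its own mixture. In 786-O, HIF1A made up 2.86% ± 0.959 of the summed alpha CPM/kb, against 72.4% ± 3.24 for CAKI-2 (SD, n = 5 each). Its share was 28.7% ± 6.47 of the sum for A498 and 21.5% ± 3.86 for 769-P (SD, n = 3 each). EPAS1 made up nearly all of the remainder, and HIF3A averaged 0.146% or less in each line. CAKI-2 was thus the one line of the 4 with more HIF1A than EPAS1 per kilobase, in 5 of 5 libraries, and the other 3 lines had more EPAS1 in 11 of 11 libraries.

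The ratio of EPAS1 to HIF1A in CPM/kb was 26.4, 53.5, 46.4, 23.7 and 36.7 in the 786-O libraries. It was 0.409, 0.39, 0.383, 0.441 and 0.284 in CAKI-2. In A498 it was 3.56, 1.87 and 2.41, and in 769-P it was 2.91, 4.59 and 3.77. A498 and 769-P overlapped in this ratio, yet their summed alpha levels were far apart, at 80.7 ± 11 CPM/kb in A498 and 4.28 ± 1.22 in 769-P (SD, n = 3 each). The sums in 786-O, 33.0 ± 7.72 CPM/kb, and in CAKI-2, 31.1 ± 3.38 (SD, n = 5 each), lay close together although HIF1A was the smaller share of one and the larger share of the other. Without the guide 4 library, the mean 786-O ratio was 33.3 in place of 37.3.

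**Figure D1:**
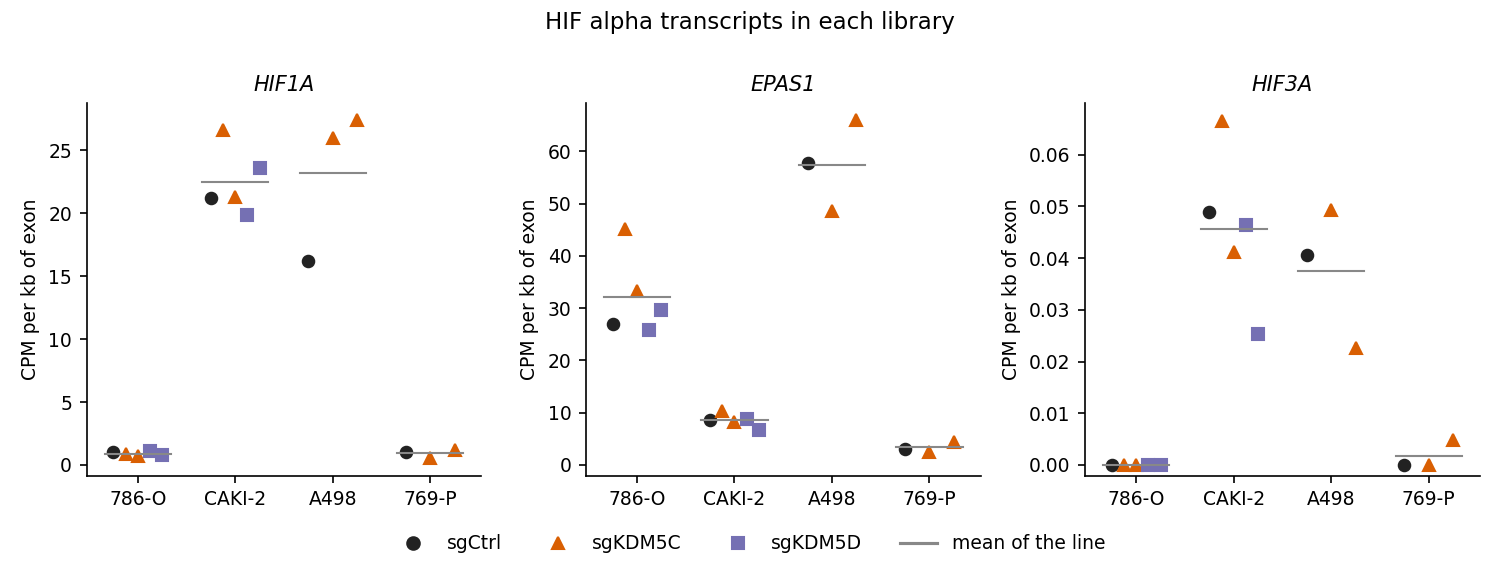
CPM per kb of exon of HIF1A, EPAS1 and HIF3A (vertical axes, each on its own scale from 0) in each of the 16 libraries, grouped by cell line and marked by guide target, with a bar at the mean of each line. HIF1A separates CAKI-2 and A498, at means of 22.5 and 23.2 CPM/kb, from 786-O and 769-P, and EPAS1 runs from a mean of 57.4 CPM/kb in A498 to 3.35 in 769-P.

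VHL (ENSG00000134086, chr3:10183462-10195351, plus strand), the substrate recognition subunit of the ligase, was transcribed in 3 lines and close to absent in the fourth. It stood at 28.8, 26.7, 27.0, 33.9 and 33.0 CPM in 786-O, at 22.7, 24.0, 22.9, 22.5 and 22.4 CPM in CAKI-2 and at 26.8, 23.0 and 29.8 CPM in A498. In 769-P it had 0, 1 and 3 counts. A498 overlapped both other expressing lines, 786-O lay above CAKI-2, and no library of the 3 approached 769-P. Among them edgeR made no call, with adjusted p = 0.131 for 786-O against CAKI-2, 0.73 for 786-O against A498 and 0.242 for CAKI-2 against A498. From the summed counts, VHL in 786-O was 574 times its level in 769-P (95% counting interval 224 to 2110). The ratio was 509 for A498 (198 to 1870) and 439 for CAKI-2 (171 to 1610).

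The near absence of VHL counts in 769-P did not extend to the genes beside it on chromosome 3. In the 769-P libraries BRK1, the gene next to it, held 1697 to 3335 counts, FANCD2 held 763 to 931 and IRAK2 held 465 to 563. TATDN2 held 328 to 437, EMC3 1013 to 1389 and SEC13 1827 to 2272. Further out, PRRT3 was at 5 to 10 counts, and GHRL was at 1 to 4 and low in all 4 lines. Medians of BRK1, FANCD2, EMC3, IRAK2 and TATDN2 in 769-P lay within the range of medians of the other lines. Other neighbours had their lowest median in 769-P. SEC13 was at 80.8 CPM against 129 to 192, and HRH1 at 6.0 against 12.3 to 41.5. CRELD1 was at 16.5 CPM against 17.9 to 37.2, and PRRT3 at 0.355 against 1.12 to 6.25.

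The beta subunits ARNT and ARNT2, which dimerise with any alpha subunit, varied in different lines. ARNT (ENSG00000143437, chr1:150782189-150849184, minus strand) stood at 18.4, 21.7 and 23.1 CPM in A498. It stood at 56.1, 73.4, 55.5, 54.4 and 60.4 CPM in 786-O, at 57.9, 51.6, 57.1, 53.2 and 52.5 CPM in CAKI-2 and at 55.5, 65.4 and 60.4 CPM in 769-P. A498 lay below every library of the other 3 lines, whose ranges overlapped. By edgeR, ARNT was 2.96-fold higher in 786-O than in A498 (log2 fold change 1.57, SE 0.136, adjusted p = 1.52e-07), 2.77-fold higher in CAKI-2 and 2.91-fold lower in A498 than in 769-P. Among the 3 higher lines edgeR made no call, with adjusted p of 0.522, 0.637 and 0.926.

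ARNT2 (ENSG00000172379, chr15:80696692-80890274, plus strand), which in most tissues is far more restricted than ARNT, gave 42.1, 43.0, 43.0, 43.5 and 44.9 CPM in CAKI-2. It gave 27.5, 30.5, 27.0, 19.7 and 25.6 CPM in 786-O and 15.8, 21.8 and 21.3 CPM in A498. In 769-P it had 1, 4 and 4 counts. CAKI-2 lay above all other libraries, 786-O and A498 overlapped, and 769-P lay below all. By edgeR it was lower in 786-O than in CAKI-2 (log2 fold change -0.60, SE 0.136, adjusted p = 0.00157) and higher in 786-O than in A498 (0.61, SE 0.139, adjusted p = 0.00134). The ratio over 769-P from summed counts was 368 in CAKI-2 (95% counting interval 194 to 806), 222 in 786-O (117 to 485) and 169 in A498 (88.7 to 370).

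769-P thus lacked nearly all VHL and ARNT2 transcript. Of the genes around ARNT2, MESD had a median of 55.6 CPM in 769-P, against 31.1 to 64.3 CPM in the other lines, and ABHD17C one of 7.18 CPM against 4.65 to 8.6. FAH was lower there, at a median of 29.8 CPM against 96.3 to 144. The adjacent CTXND1 was at 2 to 4 counts in 769-P and at 37 or fewer in every library, and BCL2A1 was at 0 counts there and at 22 or fewer in every library. ARNT2 made up 0.156% ± 0.085 of the summed beta CPM/kb in 769-P, against 43.6% ± 1.91 in A498 (SD, n = 3 each). Its share was 39.9% ± 1.68 for CAKI-2 and 26.6% ± 2.43 for 786-O (SD, n = 5 each).

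Alpha and beta transcripts did not keep a common proportion. The summed alpha CPM/kb over the summed beta CPM/kb was 2.59 ± 0.303 in 786-O and 2.22 ± 0.291 in CAKI-2 (SD, n = 5 each). It was 14 ± 1.67 in A498, the line with the most EPAS1 and the least ARNT, and 0.461 ± 0.144 in 769-P (SD, n = 3 each). These are transcript ratios and carry no measure of protein.

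**Figure D2:**
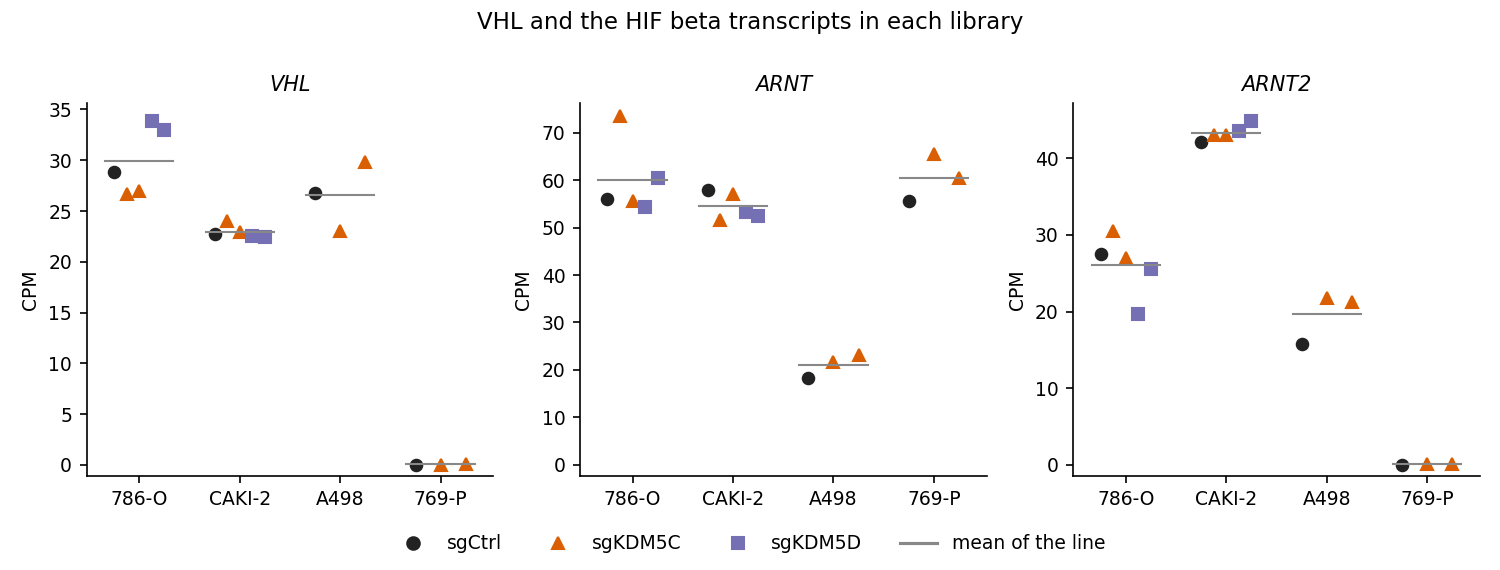
CPM of VHL, ARNT and ARNT2 (vertical axes) in each of the 16 libraries, grouped by cell line and marked by guide target, with a bar at the mean of each line. VHL and ARNT2 drop to a mean of 0.0529 and 0.116 CPM in 769-P, and ARNT is lowest in A498 at 21.1 CPM.

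Among the prolyl hydroxylases, EGLN3 (ENSG00000129521, chr14:34393433-34931980, minus strand), whose transcript is known as strongly HIF-responsive, had the widest range. A498 gave 715, 605 and 779 CPM and 786-O gave 155, 319, 157, 144 and 192 CPM. CAKI-2 gave 125, 109.6, 87.9, 119 and 113 CPM, and 769-P gave 3.99, 4.27 and 3.33 CPM. The 4 ranges did not overlap, in the same order as EPAS1. By edgeR the level was 3.66-fold lower in 786-O than in A498 (log2 fold change -1.87, SE 0.235, adjusted p = 6.4e-06) and 28.4-fold higher in CAKI-2 than in 769-P (4.83, SE 0.293, adjusted p = 5.56e-09). Between A498 and 769-P it differed 180-fold (7.49, SE 0.335, edgeR adjusted p = 2.16e-10).

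The step of EGLN3 between 786-O and CAKI-2 was the least secure. It was 1.73-fold (log2 fold change 0.79, SE 0.228, edgeR adjusted p = 0.00722), was 0.49 (edgeR adjusted p = 0.0115) without the 786-O guide 4 library, and was 0.32 (edgeR adjusted p = 0.514) between the sgCtrl libraries alone.

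EGLN1 (ENSG00000135766, chr1:231499497-231558033, minus strand), regarded as the main HIF prolyl hydroxylase in normal oxygen, was held within a narrow band by comparison. It gave 36.0, 37.8, 37.6, 37.6 and 36.2 CPM in 786-O and 70.5, 85.9, 79.3, 69.3 and 76.1 CPM in CAKI-2. A498 gave 56.6, 64.9 and 73.5 CPM and 769-P gave 62.9, 103 and 67.2 CPM. 786-O lay below every other library and the other 3 lines overlapped. By edgeR the level in 786-O was 2.07-fold lower than in CAKI-2 (log2 fold change -1.05, SE 0.153, adjusted p = 3.38e-05), and it was also lower than in A498 (-0.77, adjusted p = 0.000457) and 769-P (-0.99, adjusted p = 8.58e-05). Among the other 3 lines edgeR made no call. The highest value, 103 CPM, was that of the 769-P guide 4 library, and without it the log2 difference of 786-O from 769-P was -0.82. For CAKI-2 against A498, a pair that does not hold that library, EGLN1 was called in 5 of 21 alternative settings. The log2 difference of that pair was 0.15 to 0.38 over these settings.

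EGLN2 (ENSG00000269858, chr19:41304901-41314339, plus strand), the remaining prolyl hydroxylase, had the lowest mean level of the 3 per kilobase in 786-O, CAKI-2 and A498, at 0.987, 2.14 and 1.53 CPM/kb, while in 769-P EGLN3 was lower still. It gave 12.5, 14.9, 13.5, 14.2 and 15.2 CPM in CAKI-2 and 6.99, 7.21, 7.0, 6.31 and 4.93 CPM in 786-O. A498 gave 11.1, 10.2 and 8.78 CPM and 769-P gave 8.73, 7.89 and 8.84 CPM. CAKI-2 lay above and 786-O below all other libraries. EdgeR called CAKI-2 higher than 786-O (adjusted p = 0.000297) and 769-P (adjusted p = 0.00424) but not A498 (log2 fold change 0.37, adjusted p = 0.0622). Its exons share 2012 bases with the readthrough gene RAB4B-EGLN2, so its counts are uncertain.

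HIF1AN (ENSG00000166135, chr10:102288829-102319755, plus strand), the asparaginyl hydroxylase, varied least of the hydroxylases. It gave 134, 115 and 134 CPM in 769-P and 104, 107, 106, 104 and 116 CPM in 786-O. CAKI-2 gave 64.7, 66.3, 67.4, 64.8 and 75.3 CPM and A498 gave 61.0, 67.1 and 73.6 CPM. CAKI-2 and A498 overlapped throughout (log2 difference 0.01, edgeR adjusted p = 0.97), and both lay below every 786-O and 769-P library. By edgeR, A498 was 1.98-fold below 769-P (log2 fold change -0.98, adjusted p = 4.2e-06), and 786-O was above CAKI-2 (0.68, SE 0.118, adjusted p = 0.000172). The call between 786-O and 769-P (-0.30, edgeR adjusted p = 0.0479) held in only 3 of 21 alternative settings, with adjusted p from 0.015 to 0.199. Its exons share 325 of 13894 bases with NDUFB8 on the opposite strand.

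Per kilobase, EGLN3 made up 88.7% ± 1.51 of the EGLN1 and EGLN3 sum in A498 and 3.62% ± 0.759 in 769-P (SD, n = 3 each). It made up 78.1% ± 4.94 of that sum for 786-O and 51.4% ± 4.94 for CAKI-2 (SD, n = 5 each). The share of EGLN3 was therefore highest where EPAS1 was highest and lowest where EPAS1 was lowest.

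**Figure D3:**
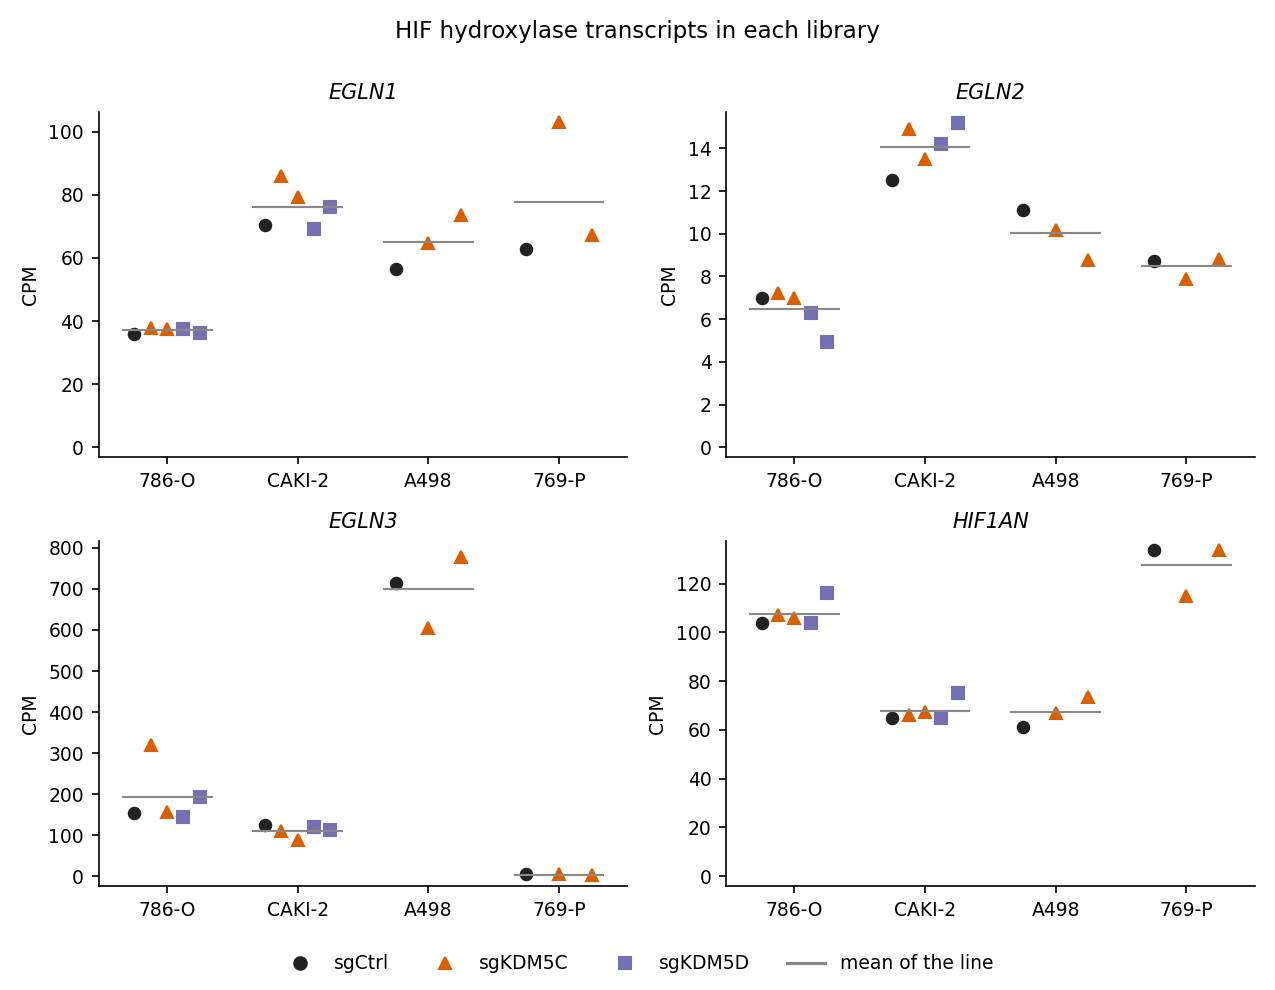
CPM of EGLN1, EGLN2, EGLN3 and HIF1AN (vertical axes) in each of the 16 libraries, grouped by cell line and marked by guide target, with a bar at the mean of each line. EGLN3 runs from a mean of 3.86 CPM in 769-P to 699.5 CPM in A498, while EGLN1 stays between 36.0 and 103 CPM.

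Counted by pair of lines, the members called by edgeR numbered 8 for 786-O against CAKI-2 (63.3% of all genes tested), 9 for 786-O against A498 (68.7%) and 6 for 786-O against 769-P (50%). They numbered 4 for CAKI-2 against A498 (65.8%), 8 for CAKI-2 against 769-P (63.8%) and 8 for A498 against 769-P (69.9%). The pairs share libraries with each other. Without HIF3A, which entered through CAKI-2 and A498 alone, the 9 remaining members gave 7, 8, 6, 4, 7 and 7 calls for these pairs as listed. The count of 4 for CAKI-2 against A498 depended on the setting, and was 6 with edgeR's own expression filter. The share of all genes called with that filter is not given here. For 786-O against CAKI-2, 3 members were higher and 5 lower (28.4% and 34.9% of all genes), or 3 and 4 without HIF3A. For CAKI-2 against 769-P, 7 were higher and 1 lower, the one being HIF1AN (35.4% and 28.4%), or 6 and 1 without HIF3A.

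Lines that stood wholly apart were counted over all libraries. 769-P lay below every other library in 4 of 10 members, VHL, EPAS1, ARNT2 and EGLN3 (10.3% of all genes tested did so). A498 lay above all others in 2, EPAS1 and EGLN3 (19.8%), and below all others in 1, ARNT (16%). CAKI-2 lay above all others in 2, ARNT2 and EGLN2 (14.1%), and 786-O lay below all others in 2, EGLN1 and EGLN2 (9.35%).

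The antisense genes at the HIF1A locus followed a different pattern from HIF1A itself. HIF1A-AS1 held 232 to 296 counts in the A498 libraries and 0 to 1 in every library of the other 3 lines. HIF1A-AS3 held 48 to 75 counts in A498 and 5 or fewer elsewhere. CAKI-2, whose HIF1A range overlapped that of A498, thus had almost none of either. They overlap HIF1A exons by 133 and 299 bases on the opposite strand, and whether the counting used strand is not given, so reads in the overlap cannot be assigned with certainty. ARNT2-DT, named as a divergent transcript of ARNT2, held 67 to 109 counts in CAKI-2, 5 to 10 in A498, 1 to 3 in 786-O and 0 in 769-P, and its order differed from that of ARNT2 between 786-O and A498. These 3 genes passed the filter only through the lines where they are high, so no test is given for them.

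Neighbours of HIF1A on chromosome 14 did not show its wide gap between CAKI-2 and A498 on one side and 786-O and 769-P on the other. SNAPC1, just downstream, was highest in A498 (median 48.7 CPM) and 769-P (25.9 CPM), ahead of CAKI-2 (7.05 CPM) and 786-O (2.61 CPM), and was thus well read in 769-P where HIF1A was low. PRKCH, just upstream, was highest in CAKI-2 (median 9.41 CPM), with A498 at 2.24, 786-O at 2.05 and 769-P at 0.534 CPM.

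**Figure D4:**
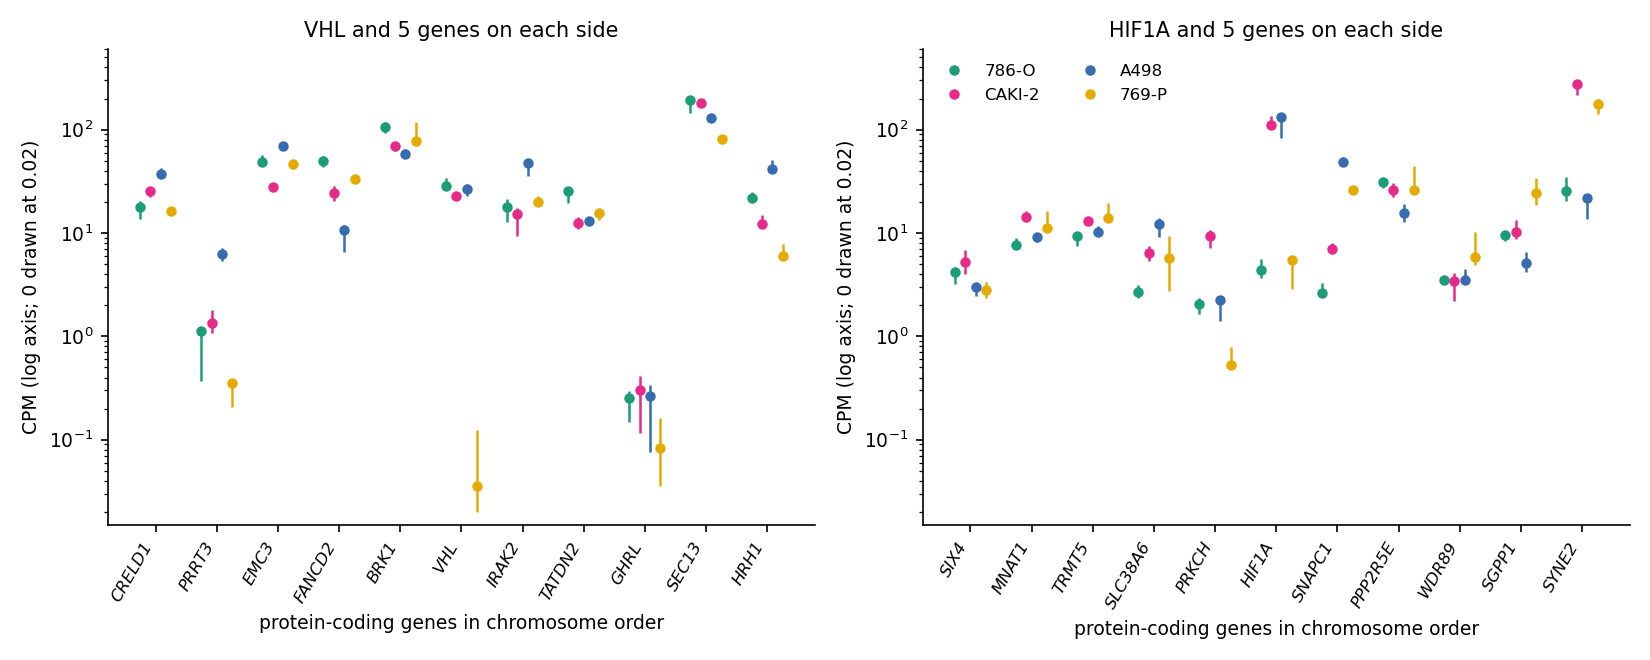
CPM (vertical axes, log scale, with 0 drawn at 0.02) of VHL, left, and HIF1A, right, with the 5 tested protein-coding genes on each side in chromosome order. Points are the median of the libraries of a line and bars run from the lowest to the highest library. VHL in 769-P stands far below BRK1, FANCD2 and IRAK2 beside it, and HIF1A is low in 786-O and 769-P.

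The other components of the pVHL ligase gave context to VHL. Each line was set against the mean of the other 3, the 4 contrasts share libraries, and the lists were chosen with results of these data known. Of 8 partners, edgeR called 4 higher and 1 lower for 786-O, where 29.3% and 27.2% of all genes were called. It called 1 higher and 2 lower for CAKI-2 (36.6% and 25%), 3 and 3 for A498 (39.7% and 29.4%) and 3 and 2 for 769-P (30.9% and 27.3%). Their median log2 difference was between -0.08 and 0.33, against -0.066 to 0.154 for all genes. CAND1, which exchanges the substrate receptors of cullins, was lower in A498 (log2 difference -2.29, SE 0.14, edgeR adjusted p = 3.32e-09), as was CUL2, the scaffold of the ligase (-1.21, SE 0.146, edgeR adjusted p = 3.87e-06). In 769-P, where VHL was close to absent, CUL2 was higher (0.67, SE 0.128, edgeR adjusted p = 0.000405) and ELOB, an adaptor, was lower (-0.45, SE 0.103, edgeR adjusted p = 0.00174).

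Of 18 other genes of HIF control, such as chaperones, coactivators and further ligases, edgeR called 9 higher and 4 lower for 786-O and 6 and 3 for CAKI-2. It called 5 and 8 for A498, the line where more of them were lower than higher, and 6 and 6 for 769-P. Their median log2 difference was 0.28, 0.06, -0.32 and 0.20 in that order, where the median of all genes was -0.066, 0.108, 0.154 and -0.062. CITED1, one of the 18, held 3 counts or fewer in every A498 library. Without it the medians were 0.33, 0.05, -0.18 and 0.24, and the numbers called were the same. Of all genes tested, 29.3% were called higher and 27.2% lower for 786-O, 36.6% and 25% for CAKI-2, 39.7% and 29.4% for A498, and 30.9% and 27.3% for 769-P. HSP90AA1, a chaperone that holds alpha subunits, was lower in A498 (log2 difference -2.41, SE 0.174, edgeR adjusted p = 1.8e-08) and higher in 769-P (1.41, SE 0.134, edgeR adjusted p = 5.18e-07). USP20, a deubiquitinase of HIF-1 alpha, was lower in 769-P (-1.9, SE 0.121, edgeR adjusted p = 8.69e-09) and higher in A498 (1.18, SE 0.0975, edgeR adjusted p = 7.55e-08). Of 10 other bHLH-PAS genes tested, the family to which the alpha and beta subunits belong, 786-O had 4 higher and 5 lower, 769-P 3 and 5, CAKI-2 6 and 2 and A498 6 and 3. Their median log2 difference was -0.88, -0.87, 1.22 and 1.32 in that order. However, 3 of the 10 had 5 counts or fewer in every library of at least 1 line, and such genes passed the filter through the other lines. Without them the counts were 3 and 4, 2 and 4, 3 and 2, and 4 and 2 of 7 genes, with medians of -0.80, -0.60, 0.09 and 0.64. Among them NPAS2 was lower in 786-O (-2.81, SE 0.16, edgeR adjusted p = 3.03e-09) and AHRR, a repressor of the aryl hydrocarbon receptor, was higher in A498 (3.34, SE 0.206, edgeR adjusted p = 3.57e-09).

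Target genes reported to lean to one alpha subunit were read beside the subunits. Of 7 targets that lean to HIF-1, 6 were higher and 0 lower in CAKI-2, with a median log2 difference of 1.34 against 0.108 for all genes, of which 36.6% were called higher. In 786-O 2 were higher and 2 lower (29.3% and 27.2% of all genes, median -0.15 against -0.066). In A498 2 were higher and 5 lower (39.7% and 29.4%, median -0.60 against 0.154), and in 769-P 0 and 3 (30.9% and 27.3%, median -1.01 against -0.062). ALDOC, a glycolytic aldolase, was higher in CAKI-2 by 5.32 (SE 0.164, edgeR adjusted p = 3.51e-12), and PDK1 and BNIP3 by 2.21 and 2.1 on the log2 scale, both called. CA9, a carbonic anhydrase and a classical HIF-1 target, went otherwise, with 146 to 224 counts in A498 and 2 or fewer in every other library, including those of CAKI-2. It passed the filter only through A498, and without it 1 was higher and 5 lower there of 6. The median log2 difference without CA9 was 1.72 for CAKI-2, 0.07 for 786-O, -0.82 for A498 and -0.60 for 769-P.

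Of 6 tested targets that lean to HIF-2, 5 were higher and 0 lower in A498 (39.7% and 29.4% of all genes, median log2 difference 2.68 against 0.154) and 4 and 1 in 786-O (29.3% and 27.2%, median 0.69 against -0.066). In CAKI-2 0 were higher and 6 lower (36.6% and 25%, median -1.10 against 0.108), and in 769-P 0 and 5 (30.9% and 27.3%, median -0.79 against -0.062). VEGFA, the angiogenic growth factor, was higher in A498 by 3.26 and lower in 769-P at -3.11, both on the log2 scale and called by edgeR. These counts describe which target transcripts were high in which line, and binding of either subunit was not measured.

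No member passed the edgeR test for the guides against KDM5C. The number called was 0 of 10 for 786-O, where 0.00991% of all genes were called. It was likewise 0 for CAKI-2 (0.0%), for A498 and for 769-P (0.00496% each) and for the mean over lines (0.00991%). At an unadjusted p under 0.05, edgeR marked 2 members for A498, HIF1A and ARNT2 (5.54% of all genes), and 1 for the mean over lines, EGLN1 (5.18%). It marked 0 for 786-O (2.92%), CAKI-2 (1.94%) and 769-P (3.32%). DESeq2 called 0 in each line and for the mean. A test of whether the sgKDM5C effect differed between lines called 0 members (0.0% of all genes) and marked 0 at an unadjusted p under 0.05 (2.29%). Of the targets leaning to HIF-1 and to HIF-2, edgeR called 0 of 7 and 0 of 6 in each line. With 1 control library per line, intervals are wide, and these counts do not show that the genes were unaltered.

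HIF1A in A498 lay furthest from its control among the genes marked before adjustment, at 83.5 CPM with sgCtrl and 134 and 141 CPM with sgKDM5C. The log2 difference was 0.72 (95% interval 0.10 to 1.34, 1.65-fold), with an edgeR adjusted p of 0.879. With the 3 A498 libraries fitted alone it was 0.70 with an edgeR adjusted p of 0.00756. That fit had 1 residual degree of freedom and a spread pooled over genes by edgeR. Its share of all genes called is not given here. Over the other alternatives the adjusted p of this difference was between 0.347 and 1.0. In the other lines HIF1A differed from its control by -0.39 (786-O), 0.17 (CAKI-2) and -0.31 (769-P) on the log2 scale, none called by edgeR.

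EGLN1 was above its control in all 8 sgKDM5C libraries, which 1.24% of all genes tested also were. Its mean log2 difference over the lines was 0.26 (SE 0.108, 95% interval 0.02 to 0.49), with an edgeR adjusted p of 0.901. Without the 769-P guide 4 library it was 0.17 (SE 0.077, edgeR adjusted p = 1.0). ARNT2 was above its control in 7 of 8 libraries (6.46% of all genes were in at least 7), including the near-zero counts of 769-P. The remaining members lay on either side of their controls.

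In 786-O the sgKDM5C value of EGLN3 rested largely on the guide 4 library. EGLN3 stood at 319 CPM there, 2.04 times the 157 CPM of guide 5, against 155 CPM in the control. EPAS1 stood at 329 CPM, 1.35 times guide 5. The sgKDM5C difference of EGLN3 was 0.61 on the log2 scale (SE 0.328, not called by edgeR), 0.02 without guide 4 and 1.04 without guide 5 (edgeR adjusted p = 0.0572), and that of EPAS1 was 0.54 (SE 0.301), 0.31 without guide 4 and 0.74 without guide 5 (edgeR adjusted p = 0.397). In the same library ALDOC stood at 215% of the control, TGFA at 191%, PDK1 at 162%, PLIN2 at 159%, CCND1 at 133% and VEGFA at 126%, while LOXL2 was at 102% and BNIP3 at 83.2%. The part of the guide, as against other differences between these populations, was not tested.

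For the guides against KDM5D, edgeR called 0 of 10 members of 786-O (0.0149% of all genes) and 0 of CAKI-2 (0.0%). At an unadjusted p under 0.05 it marked 0 in the first (1.82%) and 0 in the second (0.768%), and DESeq2 called 0 in both. For sgKDM5C against sgKDM5D, edgeR called 0 members in the first line (0.0644%) and 0 in the second (0.0%), as did DESeq2. At an unadjusted p under 0.05 it marked 1 in 786-O, ARNT2 (4.78%), and 0 in CAKI-2 (3.38%). EGLN3 differed in 786-O by 0.50 on the log2 scale (edgeR adjusted p = 1.0), by -0.09 without sgKDM5C guide 4 and by 0.93 without guide 5, the last called by edgeR (adjusted p = 0.0309).

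**Figure D5:**
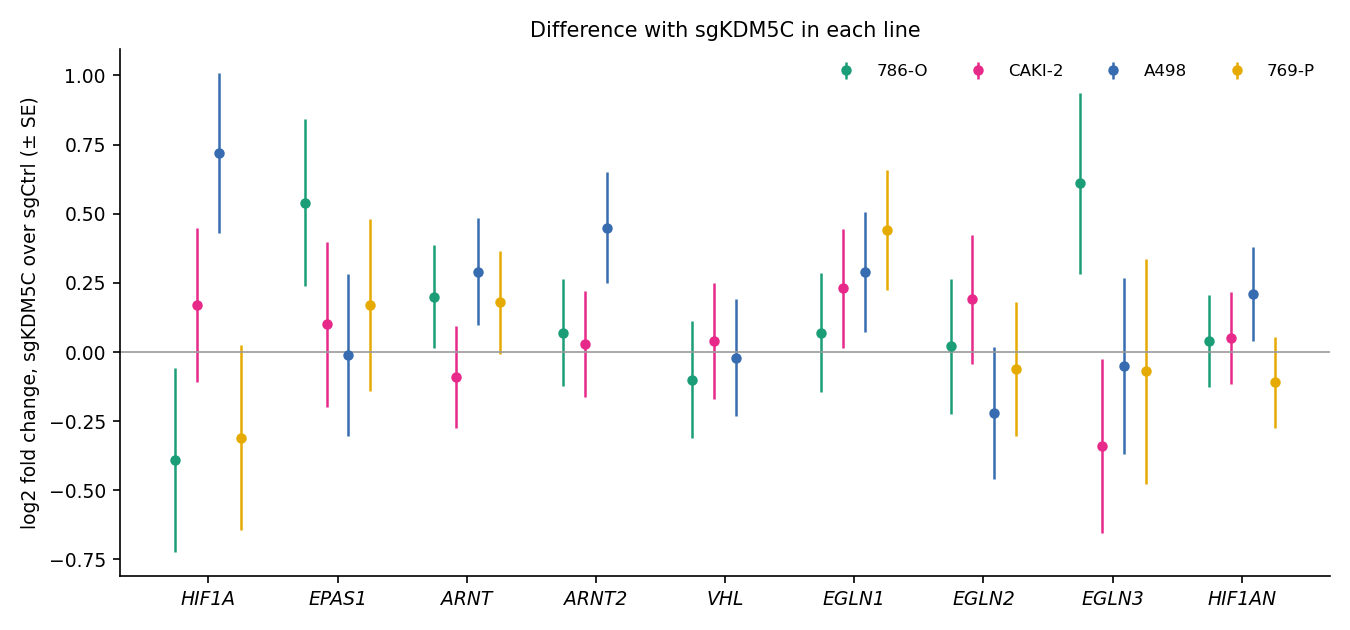
Fitted log2 fold change of sgKDM5C over sgCtrl (vertical axis) for 9 members in each line, coloured by line, with bars of 1 SE. HIF3A is left out, as are VHL and ARNT2 in 769-P, where counts were near 0. The largest are HIF1A in A498 at 0.72, EGLN3 in 786-O at 0.61 and EPAS1 in 786-O at 0.54, and no point passed the edgeR test.

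Genes most like HIF1A, EPAS1 and VHL were listed by Pearson r of log2 CPM over the 16 libraries among 15422 genes. The libraries fall into 4 lines, so r reflects the order of 4 levels and is a description. For EPAS1 the nearest were P4HA2, a collagen prolyl hydroxylase (r = 0.987), NDRG1 (0.982) and ITPR1 (0.981), with EGLN3 at 0.89. For HIF1A they were ENSG00000225399 (0.992), MILR1 (0.991) and CPSF1P1 (0.991). Each of these averaged 0.0 CPM in 786-O and 769-P and 2.01 to 7.12 CPM in CAKI-2 and A498. They passed the filter only through the lines where they are high. For VHL the nearest were DPF2 (0.997) and MYD88 (0.997), and ARNT2 stood at 0.98, each of which shares the drop in 769-P.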

How the data were processed

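RNA was isolated with the NucleoSpin RNA kit, and TruSeq Stranded libraries were sequenced paired-end on a NovaSeq instrument. The authors deposited raw counts per Ensembl gene for 16 libraries. Per the submitters' processing notes, reads were handled with Trimmomatic 0.38 and STAR 2.5.2b on GRCh37. The counting tool, its annotation and its use of strand are not given in the sources used here. The header of the count table lacks a name for the gene column, so columns were read with that shift taken into account.

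Genes with fewer than 60 counts in all were left out, leaving 20175. Counts were fitted with edgeR 4.0.16 (R 4.3.3; quasi-likelihood, trimmed mean of M values factors of 0.935 to 1.07, 10 groups of line and guide target, 6 residual degrees of freedom, common dispersion 0.0231, a biological coefficient of variation of 15.2%), with Benjamini-Hochberg adjustment over all genes tested. The scripts were tested on simulated data. Depth was 23398449 to 41617439 counts per library, so 3 counts correspond to 0.0691 to 0.128 CPM in a library. Gene symbols, positions and exon lengths came from GENCODE v44lift37, in which 55538 of 57773 identifiers matched, and CPM/kb is CPM over the length of the merged exons, which need not be the isoform a line uses.

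All 10 genes were named, and from each further list at most 3 genes per direction with the largest called line effect and a mean of at least 20 counts. Some genes that meet these rules are not reported here. The members, the lists and the tests were chosen with earlier results of these data known. Of 4 antisense genes listed, 3 matched, and of 7 targets leaning to HIF-2, EPO did not pass the filter. DESeq2 1.42.0, other scaling, filters, models and left-out libraries were tried as alternatives.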

Additional observations from a re-analysis of the deposited data

How the results depend on the processing

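Of 350 recomputed counts and ratios, 348 kept their direction and stayed within 1.5 times the reported count, or within 1 SD for ratios. The exceptions were sgKDM5C in A498 fitted on that line alone, with 1 gene called (HIF1A), and sgKDM5C against sgKDM5D in 786-O, with 0 to 1 called as single libraries were left out. Of 1372 recomputed fold changes of single genes, 26 reversed, none of them called as reported, and the cause was not tested. With sgCtrl libraries only, ARNT was -0.05 for 786-O against CAKI-2 and 0.06 for CAKI-2 against 769-P. With upper quartile scaling, which shifted the median of all genes by -0.22 for 786-O against A498 and by -0.136 for CAKI-2 against A498, VHL was -0.16 in the first pair, and HIF1A was -0.02 and HIF1AN -0.13 in the second. In that second pair, HIF1A and HIF1AN were -0.16 and -0.07 with sgKDM5C libraries only and -0.04 and -0.02 in an additive fit. EGLN1 for CAKI-2 against 769-P was -0.05 with sgKDM5C libraries only. With single libraries left out, ARNT ranged from -0.008 to 0.20 (786-O against CAKI-2) and from -0.05 to 0.12 (786-O against 769-P), VHL from -0.03 to 0.15 (786-O against A498), HIF1A from -0.32 to 0.21 (786-O against 769-P), HIF1AN from -0.03 to 0.08 (CAKI-2 against A498) and EGLN1 from -0.08 to 0.24 (CAKI-2 against 769-P). For the sgKDM5C mean over lines the ranges were -0.10 to 0.16 for HIF1A, -0.04 to 0.01 for EGLN2 and -0.11 to 0.15 for EGLN3. EGLN1 and EGLN2 for CAKI-2 against A498 gained a call in 5 and 9 of 21 alternatives, and VHL for 786-O against CAKI-2 in 1 of 21 (0.38, edgeR adjusted p = 0.00557, additive fit). EGLN2 for 786-O against A498 lost its call in 3 of 21 (edgeR adjusted p 0.0603 to 0.139), and for CAKI-2 against 769-P with sgCtrl libraries only (0.51, edgeR adjusted p = 0.147).

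The guide numbers are shared between lines. Deviations of same-numbered libraries correlated at -0.191 to 0.249 between lines, so the numbers were not taken to pair samples. With the replicate block, 786-O against 769-P had 5 members called in place of 6, EGLN2 and HIF1AN for the sgKDM5C mean were 0.01 and -0.0012, and every other count was as reported. HIF3A, and VHL and ARNT2 in 769-P, were limited by depth, and their fitted fold changes are not printed.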
